A study of Rattus norvegicus with 10 samples.

Results

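The genes described here encode the calcium/calmodulin-dependent protein kinases (CaM kinases) Camk2a, Camk2b, Camk2d, Camk2g, Camk4 and Camk1, the upstream kinases Camkk1 and Camkk2, and neurogranin, Nrgn. They were chosen by gene symbol, with earlier results of these data known. All 9 were found among the 17168 gene symbols of the count table, and all 9 passed the filter on low counts, as did 11791 genes in all. The 10 libraries were each made from 1 left hippocampus, taken at 11 months of age from female rats of the TgF344-AD strain, which carries transgenes that model Alzheimer's disease. Untreated animals (n = 5) ate ordinary rodent chow. RG2833 animals (n = 5) carried the same transgenes and ate chow with 750 mg RG2833 per kg for 6 months from 5 months of age. RG2833 is an inhibitor of the histone deacetylases HDAC1 and HDAC3. No wild-type animals were analysed here, so every value is from transgenic females.

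Calcium that enters a neuron binds calmodulin, and calcium-loaded calmodulin opens the catalytic site of the CaM kinases. CaM kinase II, built from alpha, beta, gamma and delta subunits, is one of the most abundant proteins of the forebrain postsynaptic density and is required for long-term potentiation in the hippocampus. CaM kinase I and CaM kinase IV also need phosphorylation by the CaM kinase kinases, and CaM kinase IV phosphorylates the transcription factor CREB in the nucleus. Neurogranin is a small protein of dendrites and spines that holds calmodulin when calcium is low.

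The comparison asked how long-term dietary RG2833 affected these transcripts. Of the 9 genes, 2 rose (Camk2a and Camkk2) and 1 fell (Camk1) with adjusted p below 0.05 in edgeR's quasi-likelihood test (Benjamini-Hochberg over all tested genes). Among all tested genes 5.08% passed, with 2.41% higher and 2.67% lower in RG2833 animals. The median log2 fold change (log2 FC, RG2833 over untreated) was 0.33 over the 9 genes and -0.00347 over all tested genes. As the 9 genes were chosen with earlier results known, these contrasts are a description. The call count turned on single animals. It was 0 in 7 of the 10 edgeR fits that each left out 1 animal, where 0.826% to 2.37% of all tested genes passed. Each of these 7 fits had 7 of the 9 genes at an unadjusted p under 0.05. With all animals such a p was found for 7 of the 9 genes and for 2887 of the 11791 tested genes. The call count was 1 in 2 fits (1.80% and 7.61% of all tested genes). It was 7 without untreated replicate 4, where 13.1% of all tested genes passed. DESeq2's Wald test with all animals also passed 7 of the 9 genes, against 10.9% of all tested genes. On simulated counts DESeq2's test made 32 false calls beside 179 true ones, and edgeR's made 8 beside 171.

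**Figure D1:**
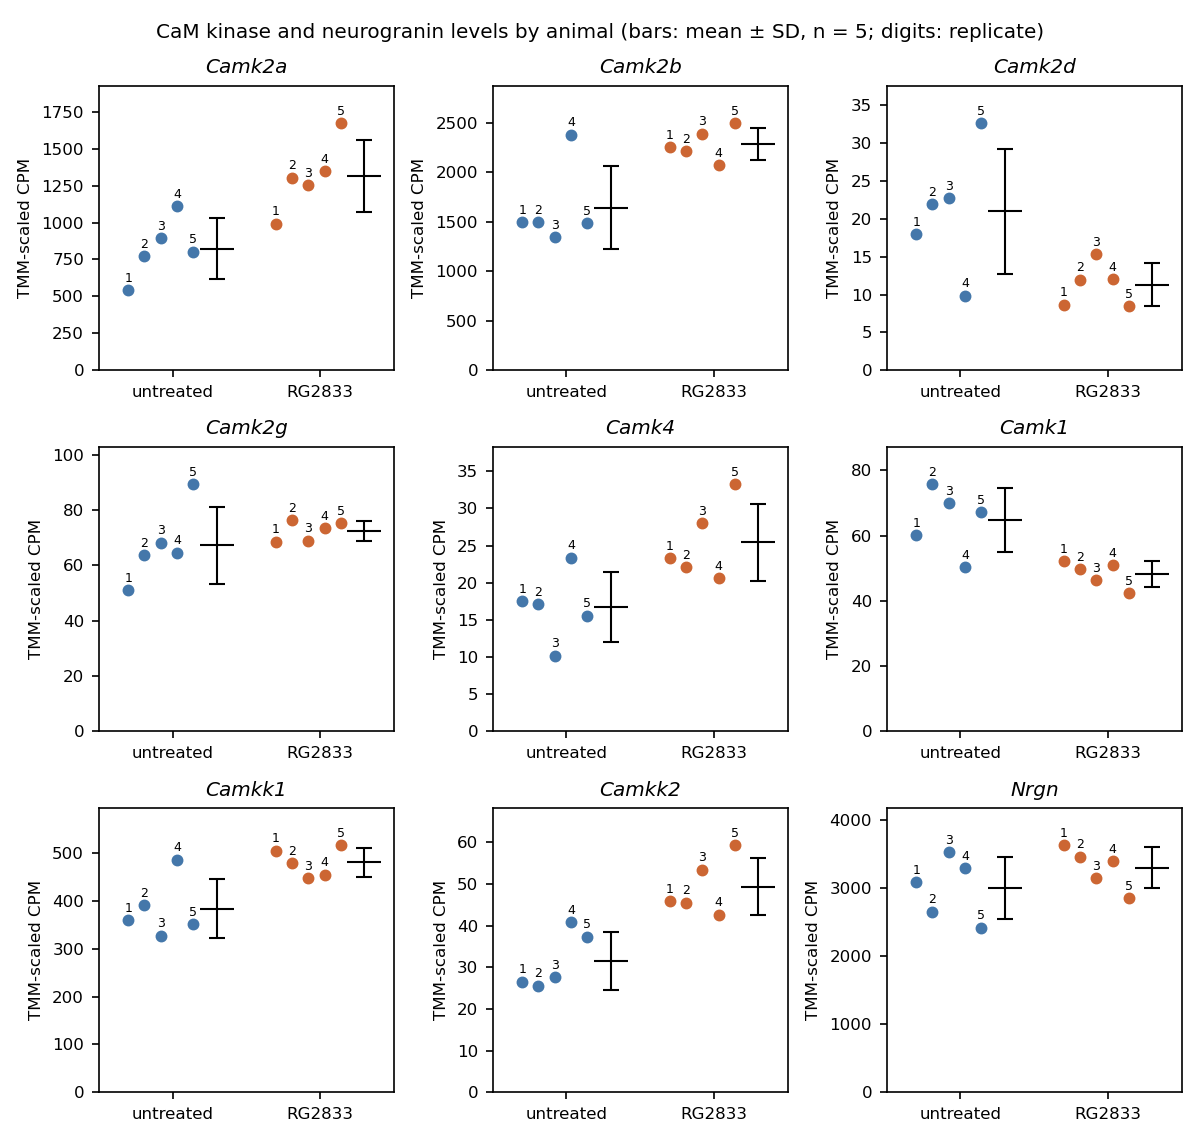
Level of each gene in each animal, in CPM after TMM scaling (counts scaled to a common library total, vertical axes from 0), for 5 untreated (blue) and 5 RG2833 animals (orange). Digits are replicate numbers and bars give the mean ± SD. Untreated replicate 4 sits at or near the RG2833 values for Camk2b, Camk2d, Camk4, Camk1 and Camkk1, and for Camkk2 the groups do not overlap.

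The stretches upstream of the start sites are shown for 4 of the 9 genes. They include Camk2b, whose window holds several GC boxes, and Camkk1, which carries both a GC box and the short CRE motif. Also shown are Camk1, which fell, and Nrgn, which did not pass the test. The windows with the highest (Camk2g) and lowest (Camk4) G+C content are not shown. RefSeq entries (GRCr8) matched 8 of the 9 genes. The entry of Camkk2 was missing. Each window holds the 250 bases before the RefSeq start, 5′ to 3′ on the gene's strand. Capitals mark the letters TGACG (part of the CRE that CREB binds), GGGCGG (a GC box), TATAAA and CCAAT on either strand. The full CRE TGACGTCA, which contains TGACG, was searched too.
Camk2b (GRCr8, chr14:85147945-85148194, minus strand): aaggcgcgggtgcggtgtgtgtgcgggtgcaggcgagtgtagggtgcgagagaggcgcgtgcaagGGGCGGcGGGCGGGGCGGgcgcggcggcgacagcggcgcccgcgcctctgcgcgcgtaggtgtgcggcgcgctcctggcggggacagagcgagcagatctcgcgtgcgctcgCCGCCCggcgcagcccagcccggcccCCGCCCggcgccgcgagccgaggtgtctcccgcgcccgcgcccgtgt
Camkk1 (GRCr8, chr10:58135685-58135934, plus strand): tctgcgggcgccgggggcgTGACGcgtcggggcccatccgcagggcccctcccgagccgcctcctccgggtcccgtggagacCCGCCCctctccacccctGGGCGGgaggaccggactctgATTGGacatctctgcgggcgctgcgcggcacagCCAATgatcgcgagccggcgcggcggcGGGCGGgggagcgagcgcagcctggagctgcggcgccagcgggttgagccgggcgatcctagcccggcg
Camk1 (GRCr8, chr4:148047146-148047395, minus strand): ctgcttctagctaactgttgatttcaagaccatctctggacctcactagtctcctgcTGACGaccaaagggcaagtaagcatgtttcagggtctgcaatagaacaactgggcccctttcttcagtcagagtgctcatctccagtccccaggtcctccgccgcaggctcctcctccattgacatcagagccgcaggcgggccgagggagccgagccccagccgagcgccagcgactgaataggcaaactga
Nrgn (GRCr8, chr8:45452418-45452667, minus strand): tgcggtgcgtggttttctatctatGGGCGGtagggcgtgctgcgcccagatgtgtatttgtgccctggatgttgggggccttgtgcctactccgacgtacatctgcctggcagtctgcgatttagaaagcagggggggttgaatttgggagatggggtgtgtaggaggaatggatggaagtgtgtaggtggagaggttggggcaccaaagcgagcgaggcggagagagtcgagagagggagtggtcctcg
GGGCGG occurred 7 times in the Camk2g window, 5 times in that of Camk2b (neighbouring matches overlap), 3 times each in those of Camk2d and Camkk1, 1 time in that of Nrgn and 0 times in those of Camk2a, Camk4 and Camk1. TGACG occurred 1 time each in the windows of Camkk1 and Camk1 and 2 times in that of Camk2a. The full CRE was found in 0 of the 8 windows. Among all 33469 windows of this length, 18.2% held TGACG, 30.5% GGGCGG, 34.0% CCAAT, 12.9% TATAAA and 1.59% the full CRE. The G+C content was 80.4% for Camk2b, 77.6% for Camkk1, 58.0% for Nrgn and 57.2% for Camk1. In the windows not shown it was 80.8% for Camk2g, 75.2% for Camk2d, 60.4% for Camk2a and 44.4% for Camk4. The median over all windows was 51.2%.

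Total estimated counts ran from 8764266 to 11311673 per library, and each of the 9 genes had at least 81 counts in each library. Untreated replicate 4 stood apart from its group. Its score on the first principal component of all tested genes (35.7% of the variance) was 11.5, among the RG2833 scores of 9.18 to 25.3, while the other untreated animals lay between -27.8 and -13.8. Ribosomal RNA loci took 2.70% to 5.36% of the counts in untreated and 1.13% to 1.96% in RG2833 animals, so this share separated the groups as the treatment did. The choroid plexus list summed to 2465 CPM in untreated replicate 1 and to at most 48.5 CPM in the other 9 libraries. The hippocampal markers Prox1 (dentate gyrus) and Bok (CA3) were detected, at group means of 32.8 and 77.7 CPM in untreated animals. Prox1 was 12.4 and 11.2 CPM in untreated replicates 1 and 3 and at most 54.9 CPM in that group. In RG2833 animals it was 28.8 to 69.1 CPM. Bok ran from 41.0 to 114 CPM in untreated and from 111 to 118 CPM in RG2833 animals. The dentate gyrus list summed to 49.1 to 189 CPM in untreated and 134 to 214 CPM in RG2833 animals. The CA3 list summed to 236 to 568 CPM and 515 to 720 CPM. The CA1 marker Wfs1 was at 588 CPM in untreated replicate 4. Its range was 63.9 to 88.0 CPM among the remaining untreated and 108 to 605 CPM among the RG2833 animals. The 4 CA1 markers together summed to 1244 CPM in untreated replicate 4, against 315 to 730 CPM among the remaining untreated and 371 to 1390 CPM among the RG2833 animals. The part of RNA from CA1, CA3 or the dentate gyrus in the differences of the 9 genes was not tested. By contrast the dentate marker Tdo2 had no count in any library.

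Markers of excitatory neurons, a list without any of the 9 genes, were measured beside Camk2a. Of its 8 genes 7 had higher means in RG2833 animals, 0 passed the edgeR threshold and 4 had an unadjusted p under 0.05, with a median log2 FC of 0.48. DESeq2's Wald test passed 3 of the 8, against 10.9% of all tested genes. Without untreated replicate 4 edgeR passed 4 of the 8, against 13.1% of all tested genes. In each of the other 9 fits that left out 1 animal edgeR passed 0. The summed level of the list ran from 3544 to 5882 CPM in untreated and from 5242 to 6782 CPM in RG2833 animals, and none of its genes was at 0. Slc17a7, which encodes the vesicular glutamate transporter VGLUT1, averaged 1626 CPM without and 2081 CPM with RG2833 (log2 FC 0.36 ± 0.11, SE; adjusted p = 0.0689 in edgeR). With the score of this list as a covariate in edgeR, 0 of the 9 genes passed (0 at an unadjusted p under 0.05) and 4 genes in all, and the log2 FC of Camk2a was 0.24. Of the other marker lists, edgeR passed 1 pan-neuronal gene (Rbfox3, higher), 1 of 8 microglial and 1 of 3 tested choroid plexus genes (both lower), and 0 of the inhibitory neuron, astrocyte and oligodendrocyte genes, with 0 of these 3 lists' genes at an unadjusted p under 0.05 or past DESeq2's test. The pan-neuronal, microglial and choroid plexus lists each had 0 calls in 8 of the 10 leave-one-out fits, for choroid plexus also without untreated replicate 1, and the inhibitory neuron list had 1 call without untreated replicate 5. Of the 9 CA1, CA3 and dentate gyrus markers tested 0 passed in edgeR and 1 (CA3) passed DESeq2's test. An unadjusted p under 0.05 in edgeR was found for 2 of the 9, both CA3 markers. All 3 tested CA3 markers were higher in RG2833 animals, with a median log2 FC of 0.55. Without untreated replicate 4, 2 of the 4 CA1 markers passed in edgeR. In whole tissue, more cells of a type and more RNA per cell cannot be told apart.

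Of the CaM kinase II genes, Camk2a encodes the alpha subunit, which is made in excitatory forebrain neurons. Its level was 543, 771, 894, 1109 and 803 CPM in untreated replicates 1 to 5 and 991, 1304, 1254, 1345 and 1672 CPM in RG2833 replicates 1 to 5. In 4 of the 5 RG2833 animals Camk2a lay above every untreated animal, and only RG2833 replicate 1 overlapped, with untreated replicate 4. The mean rose from 824 ± 205 to 1313 ± 243 CPM (SD, n = 5), which gave a log2 FC of 0.67 ± 0.17 (SE; 95% interval 0.30 to 1.05; adjusted p = 0.0459 in edgeR). It passed in 1 of the 10 fits that left out 1 animal, the one without untreated replicate 4 (log2 FC 0.80, adjusted p = 0.00863 in edgeR), and ran from 0.55 to 0.80 over the 10. With covariates in edgeR it did not pass, at 0.48 with the ribosomal RNA share, 0.45 with 1 surrogate variable and 0.24 with the excitatory neuron score (adjusted p of 0.465 or more).

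Camk2b encodes the beta subunit, which also binds actin in spines. Its level was 1498, 1496, 1348, 2383 and 1486 CPM in the untreated animals and 2253, 2218, 2391, 2074 and 2499 CPM in the RG2833 animals. In the untreated group 4 values were close together and that of replicate 4 was far higher; it was above 3 of the 5 RG2833 animals. The means were 1642 ± 419 and 2287 ± 164 CPM (SD, n = 5), which gave a log2 FC of 0.48 ± 0.14 (SE) that did not pass (adjusted p = 0.0673 in edgeR). It passed in 1 of the 10 leave-one-out fits, without untreated replicate 4 (0.65, adjusted p = 0.00103 in edgeR), and the adjusted p reached 0.155 in the others. With a covariate in edgeR the log2 FC was 0.07 (ribosomal RNA share), 0.15 (1 surrogate variable) and 0.13 (excitatory neuron score), with a smallest adjusted p of 0.574.

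The delta subunit gene Camk2d is expressed widely outside the brain, in heart muscle among other tissues. It had few counts, and its level was 18.0, 21.9, 22.7, 9.87 and 32.6 CPM in untreated animals and 8.68, 12, 15.3, 12 and 8.47 CPM in RG2833 animals. All 5 RG2833 animals were below 4 of the 5 untreated animals. The log2 FC of -0.89 ± 0.26 (SE; 95% interval -1.47 to -0.32) was the farthest from 0 among the 9 genes and did not pass (adjusted p = 0.0688 in edgeR). Of the 10 leave-one-out fits it passed in 1, without untreated replicate 4 (-1.08, adjusted p = 0.00595 in edgeR). Beside this, the 6 endothelial markers all had lower means in RG2833 animals, with 0 past the edgeR threshold and 4 at an unadjusted p under 0.05. Their summed level was 188 to 290 CPM in untreated and 173 to 192 CPM in RG2833 animals. DESeq2's Wald test passed 2 of the 6. The part of endothelial RNA in the Camk2d difference was not tested.

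Camk2g, the gamma subunit gene, ranged from 51.0 to 89.4 CPM in untreated animals (median 64.6) and from 68.6 to 76.3 CPM in RG2833 animals (median 73.3). The RG2833 values lay inside the untreated range. The log2 FC was 0.11 ± 0.12 (SE; 95% interval -0.15 to 0.36; adjusted p = 0.616 in edgeR).

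**Figure D2:**
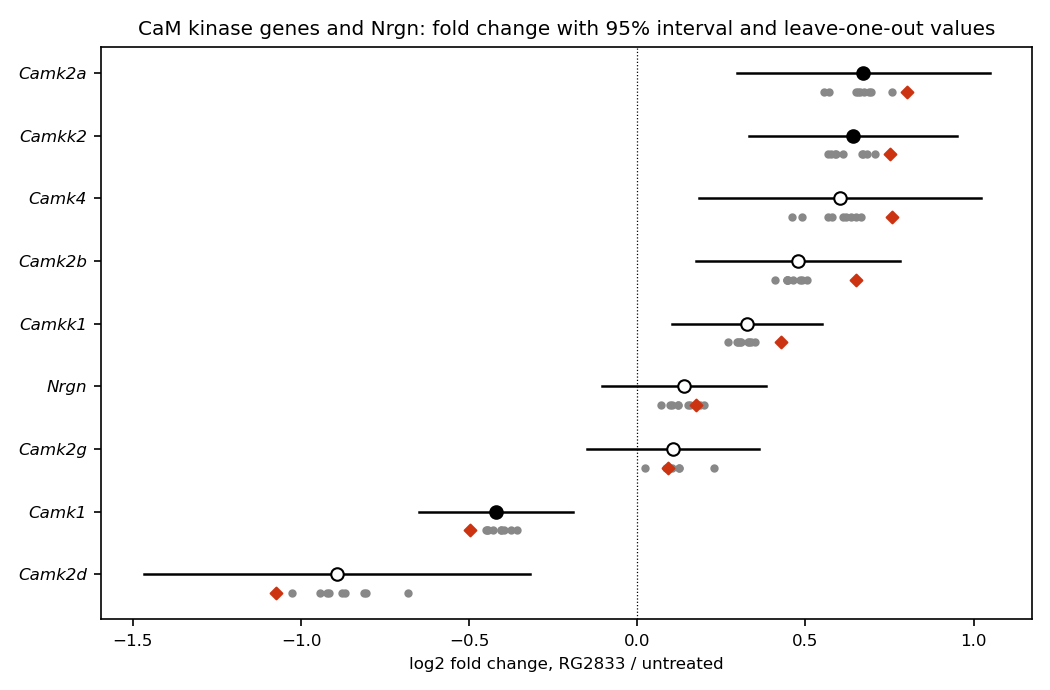
Log2 fold change (RG2833 over untreated, horizontal axis) of the 9 genes with its 95% interval, filled where the edgeR adjusted p was under 0.05. The grey points below each line are the values without 1 animal and the red diamond is the value without untreated replicate 4, which lies farthest from 0 for 7 of the 9 genes (not for Nrgn and Camk2g).

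Ratios between genes of 1 animal need no library scaling and test whether genes changed by different amounts. Of 3 ratios, 0 passed after adjustment over the 3, and 1 had an unadjusted exact permutation p under 0.05. The log2 ratio of Camk2a to Camk2b counts was -1.001 ± 0.32 in untreated and -0.82 ± 0.25 in RG2833 animals (SD, n = 5), a difference of 0.18 (two-sided exact permutation test, p = 0.341, adjusted p = 0.341). For Camk2a over Camk2d it was 5.36 ± 0.85 and 6.88 ± 0.46, a difference of 1.52 (two-sided exact permutation p = 0.0317, adjusted p = 0.0833). The only untreated animal inside the RG2833 range of 6.36 to 7.62 was replicate 4, at 6.81. Without untreated replicate 4 the difference was 1.88 and passed (exact permutation test, adjusted p = 0.0238). For 5 animals against 5 the smallest p this test can give is 0.00794.

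The share of Camk2a among the counts of the 4 CaM kinase II genes was 25.7% to 38.3% in untreated and 29.8% to 39.3% in RG2833 animals, so the ranges overlapped. Camk2b held 57.8% to 71.0% and 58.7% to 67.8%. Camk2d held 0.277% to 1.35% and 0.199% to 0.410%, and Camk2g held 1.81% to 3.71% and 1.77% to 2.11%. These are shares of counts, not of molecules, since they are not divided by transcript length. The 4 genes are paralogs. The estimated counts of Camk2a and Camk2g were not whole numbers in 7 of 10 libraries each, by at most 0.03 counts, and that of Camk2b was not whole in 1 library. How many reads aligned to more than 1 of them is not given in the sources used here, so a division of reads between them is uncertain.

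**Figure D3:**
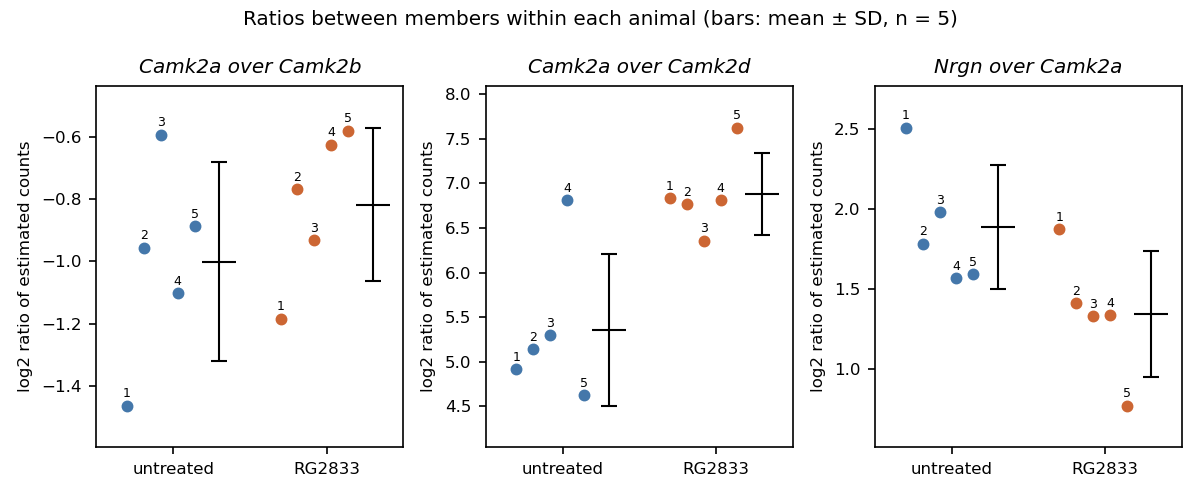
Log2 ratio of the estimated counts of 2 genes within each animal (vertical axes, not from 0), for untreated (blue) and RG2833 animals (orange), with replicate numbers and mean ± SD. Untreated replicate 4 lies at 6.81 among the RG2833 values of Camk2a over Camk2d, and the groups overlap in all 3 panels.

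Among the upstream kinases, Camkk2, whose product activates CaM kinases I and IV and also AMP-activated protein kinase, was the only one of the 9 genes whose groups did not overlap (7.27% of all tested genes did not). Its level was 26.5, 25.6, 27.7, 40.8 and 37.3 CPM in untreated animals and 45.9, 45.5, 53.4, 42.6 and 59.3 CPM in RG2833 animals. The highest untreated value, again replicate 4, and the lowest RG2833 value were 40.8 and 42.6 CPM. The mean rose from 31.6 ± 6.97 to 49.3 ± 6.86 CPM (SD, n = 5), which gave a log2 FC of 0.64 ± 0.14 (SE; 95% interval 0.33 to 0.95; adjusted p = 0.0300 in edgeR). It passed in 3 of the 10 fits that left out 1 animal, with values of 0.57 to 0.75. It did not pass with a covariate in edgeR, at 0.12 with the ribosomal RNA share, 0.21 with the excitatory neuron score and 0.41 with 1 surrogate variable (smallest adjusted p = 0.392).

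Camkk1, the other CaM kinase kinase gene, was 360, 390, 327, 485 and 352 CPM in untreated animals and 505, 479, 447, 454 and 516 CPM in RG2833 animals. All 5 RG2833 animals were above 4 of the 5 untreated animals, and replicate 4 was above 3 of the RG2833 animals. The log2 FC of 0.33 ± 0.10 (SE) did not pass (adjusted p = 0.0794 in edgeR). Of the 10 leave-one-out fits it passed in 1, without untreated replicate 4 (0.43, adjusted p = 0.00591 in edgeR).

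Of the kinases they activate, Camk1 encodes CaM kinase I, which acts in the cytoplasm on axon and dendrite growth. It was 60.2, 75.8, 70.1, 50.4 and 67.3 CPM in untreated animals and 52.3, 49.8, 46.3, 51.0 and 42.5 CPM in RG2833 animals. All 5 RG2833 animals were below 4 of the untreated animals, and 3 of them were also below untreated replicate 4. The mean fell from 64.7 ± 9.81 to 48.4 ± 3.97 CPM (SD, n = 5), which gave a log2 FC of -0.42 ± 0.11 (SE; 95% interval -0.65 to -0.19; adjusted p = 0.0420 in edgeR). It passed only without untreated replicate 4 among the 10 fits that left out 1 animal (-0.50, adjusted p = 0.00477 in edgeR), and it was lost with the replicate number as a block (log2 FC -0.41, adjusted p = 0.0948 in edgeR). With the share of ribosomal RNA in the model the log2 FC of Camk1 was 0.00997 ± 0.16 (SE), so its sign was not resolved. That share separated the groups, so this fit cannot tell it apart from the treatment. With 1 surrogate variable or the excitatory neuron score the log2 FC was -0.17 or -0.16 (smallest adjusted p of the 3 covariate fits in edgeR 0.547). In the RefSeq gene table Camk1 overlaps Ogg1, which had group means of 7.71 and 6.86 CPM (log2 FC -0.17 ± 0.15, SE; adjusted p = 0.524 in edgeR), and Camkk2 overlaps P2rx4, at 27.5 and 29.4 CPM (0.09 ± 0.08; adjusted p = 0.512 in edgeR). The estimated counts of Camk1 and Camkk2 were whole numbers in each of the 10 libraries. The library kit kept strand, but whether the counting used it is not given in the sources used here, so reads shared by overlapping genes are uncertain.

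Camk4, the gene of the nuclear CaM kinase IV, was 17.5, 17.1, 10.2, 23.4 and 15.5 CPM in untreated animals and 23.3, 22.1, 28.0, 20.6 and 33.3 CPM in RG2833 animals. Again all 5 RG2833 animals were above 4 untreated animals, and replicate 4 was above 3 of the RG2833 animals. The log2 FC of 0.60 ± 0.19 (SE; 95% interval 0.18 to 1.02) did not pass (adjusted p = 0.0844 in edgeR), and of the 10 leave-one-out fits it passed in 1, without untreated replicate 4 (0.76, adjusted p = 0.0182 in edgeR).

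Nrgn, the neurogranin gene, is a marker of excitatory forebrain neurons. It was 3083, 2652, 3523, 3285 and 2415 CPM in untreated animals and 3626, 3458, 3144, 3390 and 2849 CPM in RG2833 animals. The groups overlapped widely, and 1 RG2833 animal was above every untreated animal. The means were 2992 ± 454 and 3294 ± 303 CPM (SD, n = 5), which gave a log2 FC of 0.14 ± 0.11 (SE; 95% interval -0.10 to 0.38; adjusted p = 0.4704 in edgeR). The log2 ratio of Nrgn to Camk2a counts was 1.88 ± 0.39 in untreated and 1.34 ± 0.39 in RG2833 animals (SD, n = 5), a difference of -0.54 that did not pass (two-sided exact permutation p = 0.0556, adjusted p = 0.0833). It passed without RG2833 replicate 1 (difference -0.67, exact permutation test, adjusted p = 0.0476), so a smaller change of Nrgn than of Camk2a was not established with all animals.

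With all animals the groups did not overlap for 1 of the 9 genes. Without untreated replicate 4, chosen for this because its values lay among those of the RG2833 animals, they did not overlap for 7 (all but Camk2g and Nrgn), against 14.3% of all tested genes. Leaving out each of the other 9 animals in turn gave 1 or 2 of the 9 genes, against 8.24% to 12.3% of all tested genes. The coefficient of variation was larger in the untreated than in the RG2833 group for 9 of 9 genes, for example 25.5% against 7.15% for Camk2b and 20.7% against 4.92% for Camk2g. The untreated group had the larger coefficient of variation for 75.5% of all tested genes too, and the difference in spread was not tested. The numbers of the replicates name different animals, so no value was paired.

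With the group means removed, Camk2a was compared with the other 8 genes over the 10 animals, and 0 of the 8 relations passed, before or after adjustment. The highest r was with Camkk2, at r = 0.63 (exact permutation within groups, p = 0.0912, adjusted p = 0.525) and rho = 0.56 (p = 0.146, adjusted p = 0.586). Without the 2 animals farthest from the median of Camk2a (untreated replicates 1 and 4) r was 0.37. The highest rho was with Camk2g, at 0.61 (exact permutation p = 0.0881, adjusted p = 0.586), where r was 0.47. With Camk1 r was -0.44 (exact permutation p = 0.289, adjusted p = 0.525) and rho was -0.35 (exact permutation p = 0.397, adjusted p = 0.770), and r was -0.74 without those 2 animals. That r turned on single animals, at -0.80 without untreated replicate 1 (exact permutation p = 0.00903, adjusted p = 0.0722) and -0.0256 without untreated replicate 4. With Nrgn r was -0.08 (exact permutation p = 0.862) and rho was 0.18 (exact permutation p = 0.674).

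The 5 genes nearest to Camk2a in profile included Iqsec2, Jph4, Nptx2 and Synpo, by the root-mean-square difference of centred log2 CPM over the 10 animals (0.121 to 0.167, of 11773 candidates). The profiles hold the difference between the groups, so the choice itself sets log2 FCs close to that of Camk2a, and they are given as a description with no test. They were 0.61 for Iqsec2, a guanine exchange factor of the postsynapse, 0.61 for Jph4, a junctophilin of neurons, 0.49 for Nptx2, which encodes a secreted neuronal pentraxin, and 0.63 for Synpo, which encodes the spine protein synaptopodin. None of the other 8 genes was as near to Camk2a; the nearest, Camkk2, was at 0.233 and Camk2b at 0.271. The genes nearest to Nrgn were Dguok, Necab2, Caap1, Ubac2 and Hmox2 (0.0534 to 0.0891), chosen in the same way and therefore not tested.

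Around the kinases, 49 other genes of calcium-calmodulin signalling were listed by role, and all 49 were tested. Of these 3 rose (Calm3, Crtc1 and Syn1), 1 fell (Camk2n2) and 45 did not pass, with a median log2 FC of 0.08. This compares with the 5.08% of all tested genes that passed. An unadjusted p under 0.05 was found for 16 of the 49 and for 2887 of the 11791 tested genes.

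The calmodulin genes encode the same protein. Calm3 rose from 832 ± 104 to 1083 ± 33.2 CPM (SD, n = 5) without overlap of the groups (log2 FC 0.38 ± 0.09, SE; adjusted p = 0.0351 in edgeR). Calm2 was at 1319 ± 128 and 1181 ± 51.8 CPM (log2 FC -0.16 ± 0.08, SE; adjusted p = 0.243 in edgeR). Camk2n2, which encodes an inhibitor protein of CaM kinase II, fell from 22.1 ± 7.24 to 12.1 ± 1.95 CPM (SD, n = 5; log2 FC -0.87 ± 0.21, SE; adjusted p = 0.0400 in edgeR), and the groups overlapped. Its relative Camk2n1, at 294 ± 129 (519 in untreated replicate 2) and 202 ± 13.9 CPM, did not pass (-0.54 ± 0.21, adjusted p = 0.143 in edgeR). Over the 10 fits that left out 1 animal the log2 FC of Camk2n1 ran from -0.65 to -0.23.

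Downstream of CaM kinase IV, Crtc1, a coactivator of CREB, rose from 71.9 ± 13.6 to 109 ± 11.6 CPM (SD, n = 5; log2 FC 0.60 ± 0.12, SE; adjusted p = 0.0241 in edgeR). The other 3 genes of that role, Creb1, Crem and Crebbp, had log2 FCs between -0.06 and 0.06. Syn1, which encodes synapsin I, a synaptic vesicle protein and classical CaM kinase substrate, rose from 1193 ± 50.9 to 1567 ± 171 CPM (0.39 ± 0.08; adjusted p = 0.0260 in edgeR). When 1 animal was left out, Crtc1 and Syn1 passed in 5 of 10 fits each, Calm3 in 3 and Camk2n2 in 1. With the replicate number as a block in edgeR 0 of the 49 passed, with 16 at an unadjusted p under 0.05. In that fit 1.53% of all tested genes passed. Without untreated replicate 4 and with no block 12 of the 49 passed, against 13.1% of all tested genes.

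In the remaining roles 0 of 34 genes passed the edgeR test. An unadjusted p under 0.05 was found for 9 of them and for 2887 of the 11791 tested genes. DESeq2 passed 4 of the 34, against 10.9% of all tested genes. Without untreated replicate 4 edgeR passed 7 of the 34, against 13.1% of all tested genes. The gene with the smallest p in each role is given. Among 13 other kinases of the family it was Camk1d (log2 FC 0.65 ± 0.18, SE; adjusted p = 0.0562 in edgeR). Among 3 small calmodulin-binding proteins it was Gap43, which encodes the growth cone protein GAP-43 (-0.46 ± 0.15; adjusted p = 0.0898 in edgeR). For calcineurin and its regulators it was Ppp3ca, the alpha catalytic subunit of this calcium-dependent phosphatase (0.61 ± 0.20; adjusted p = 0.0922 in edgeR). The CaM kinase phosphatase Ppm1e (0.57), the protein kinase C gene Prkca (0.58), the AMP-activated kinase gene Prkaa1 (0.23) and the cyclase gene Adcy1 (0.59) had edgeR adjusted p-values between 0.107 and 0.3195.

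**Figure D4:**
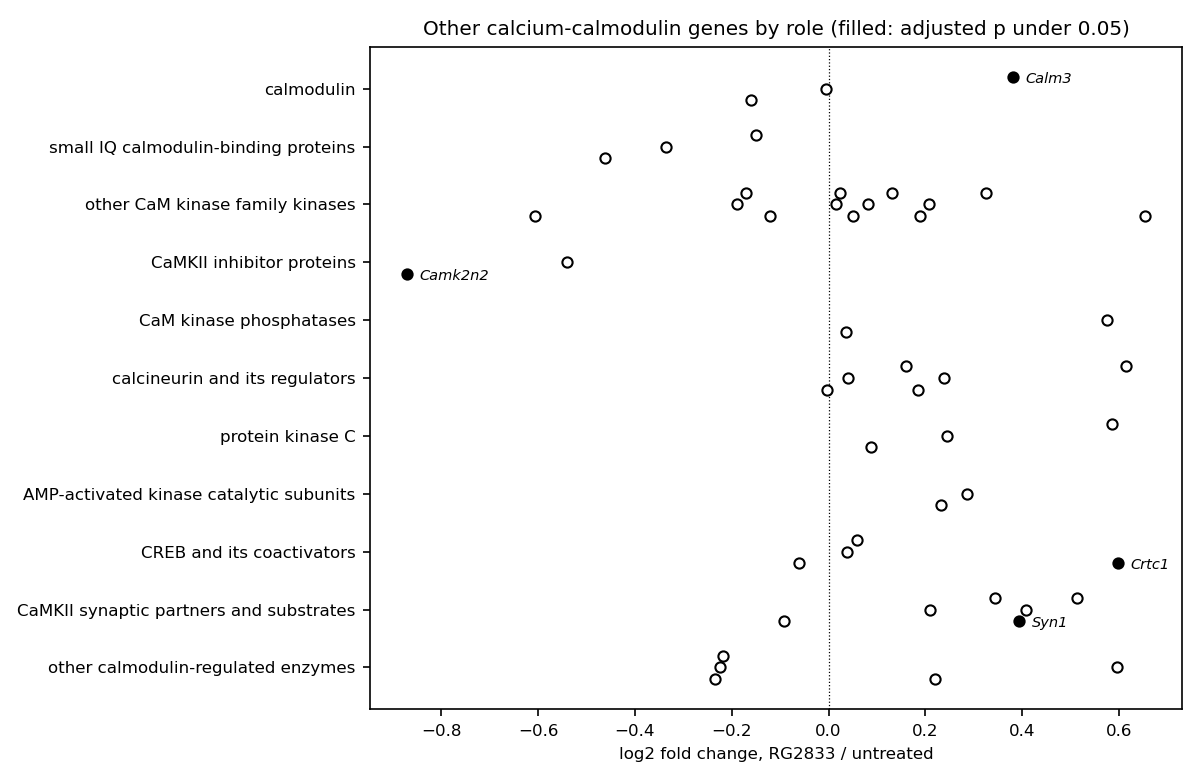
Log2 fold change (RG2833 over untreated, horizontal axis) of the 49 other calcium-calmodulin genes, 1 point a gene, in rows by role (vertical offsets within a row only separate points). The 4 filled points passed the edgeR test, Calm3, Crtc1 and Syn1 to the right of 0 and Camk2n2 to the left.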

How the data were processed

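RNA from the left hippocampus of 10 animals (5 untreated, 5 RG2833) was made into strand-specific mRNA libraries, per the labels' protocols. The submitters' processing notes name bcl2fastq 2.17, Bowtie2 2.1.0, RSEM 1.2.15, edgeR and build rn6. The authors deposited RSEM estimated counts (expected counts per gene symbol, not normalized) and a normalized signal, CPM after TMM scaling, per the file names. The annotation is not given in the sources used here. Columns were matched to samples by title.

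Counts were rounded, filtered (filterByExpr) and tested with edgeR 4.0.16 (quasi-likelihood, TMM, no covariate; R 4.3.3). Standard errors are the fold change over the square root of F. CPM values are TMM-scaled over tested genes, and log2 CPM used a prior count of 2. Animals are the replicates, although cage or litter is not given. Floors and intervals cover counting error or animal spread only. Alternatives were DESeq2 1.42.0, limma 3.58.1, sva 3.50.0, other scalings and filters, covariates, a replicate block and leaving out each animal. Within groups, libraries differed by at least 4.60 chi-square units per degree of freedom, so none was a duplicate. The tests were first run on simulated counts in which 200 genes changed by a log2 value of 1. Of these edgeR recovered 171 with 8 false calls, and DESeq2 recovered 179 with 32 false calls. Deviations of same-numbered animals correlated between -0.319 and 0.151, so the main test has no block.

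The 9 genes, the pathway list and the marker lists were chosen with earlier results of these data known. Named were the 9 genes, listed pathway genes that passed or had the smallest p of their role, the 5 nearest profiles to Camk2a and to Nrgn, and marker genes; some of these are not reported here. Promoters are from RefSeq GRCr8, a different build from rn6, and no coordinates of the counted genes are given.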

Additional observations from a re-analysis of the deposited data

Results flagged for a closer look

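Dixon's test for 5 samples, whose 95% limit is a gap over range of 0.71, was applied to 116 groups (the named genes given with levels or fold changes, the 3 ratios, the marker sums, the ribosomal RNA share and the total count, for untreated and RG2833 animals separately). It singled out 7 values, and about 5.8 would be so by chance. Camk2b was 2383 CPM in untreated replicate 4, and the next value in that group was 1498 CPM (gap over range 0.855). Ppp3ca was 1474 CPM in the same animal, against at most 779 CPM in the other untreated animals (0.814). Wfs1, a CA1 marker, was 588 CPM in that animal too, against at most 88.0 CPM (0.954). Camk2n1 was 519 CPM in untreated replicate 2, against at most 267 CPM (0.800). Syn1 was 1863 CPM in RG2833 replicate 1, against at most 1534 CPM in its group (0.745). Camk1d was 178 CPM in RG2833 replicate 5, against at most 144 CPM (0.751). The choroid plexus marker sum was 2465 CPM in untreated replicate 1, against at most 27.1 CPM in the other untreated animals (0.993).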

How the results depend on the processing

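Scaling (DESeq2 size factors, library totals), filters and limma trend left the 3 called genes past the threshold. With limma-voom Camk1 was -0.41 (adjusted p = 0.051). DESeq2's Wald test also called Camk2b (0.48), Camk2d (-0.90), Camk4 (0.60) and Camkk1 (0.32), which gave 7 of 9 genes (5 higher, 2 lower) and 1286 in all.

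Each covariate left 0 of the 9 genes past the edgeR threshold, and 1 (with the surrogate variable) or 0 at an unadjusted p under 0.05. With the ribosomal RNA share the log2 fold changes were 0.48 for Camk2a, 0.12 for Camkk2, 0.00997 for Camk1 and -0.0527 for Camk4, and 2 genes in all passed. The last pair changed sign, but the SE for Camk1 was 0.16, so its sign was not resolved. This share separated the groups, so the fit cannot tell it apart from the treatment. With 1 surrogate variable the log2 fold changes were 0.45, 0.41 and -0.17 for Camk2a, Camkk2 and Camk1 (5 genes in all). With the excitatory neuron score they were 0.24, 0.21 and -0.16, Camk2g reversed to -0.0690, and 4 genes passed in all. Camk2b was at 0.07, 0.15 and 0.13 with the ribosomal RNA share, the surrogate variable and the excitatory neuron score. Over the 12 other settings with all animals the value nearest 0 was -0.25 for Camk2d and 0.13 for Camkk1. The cause was not tested.

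With the replicate block 180 genes were called in all, Camk1 was at -0.41 and not called, 0 members were called lower, and 0 of the 49 pathway genes passed; Camk2a (0.69) and Camkk2 (0.66) still passed. The block changed no other call among the 9 genes or the 3 ratios (difference 1.52 for Camk2a over Camk2d), although with 5 pairs no ratio could pass. The numbers do not pair the animals.

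Of the 49 pathway genes, 3 were called higher and 1 lower. DESeq2, which passed 10.9% of all tested genes, gave 6 and 3, and limma trend gave 5 higher with either pseudocount (0 lower with 0.1). With limma-voom 0 were lower. Each covariate gave 0 and 0 in edgeR, with 2 to 5 of the 49 at an unadjusted p under 0.05.

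Leaving out 1 animal, the values ran from 0.55 to 0.80 (Camk2a), 0.41 to 0.65 (Camk2b), -1.08 to -0.68 (Camk2d), 0.02 to 0.23 (Camk2g), 0.46 to 0.76 (Camk4), -0.50 to -0.36 (Camk1), 0.27 to 0.43 (Camkk1), 0.57 to 0.75 (Camkk2) and 0.07 to 0.20 (Nrgn). The ratio differences ran from 0.07 to 0.28 (Camk2a over Camk2b), 1.33 to 1.88 (Camk2a over Camk2d) and -0.67 to -0.39 (Nrgn over Camk2a). Calls ran from 0 to 7 of the 9 genes (0 to 5 higher, 0 to 2 lower), 0 to 9 higher and 0 to 3 lower of the pathway genes, and 98 to 1556 of all genes. The r of Camk2a ran from -0.49 to 0.26 with Camk2d, -0.0152 to 0.81 with Camk2g, -0.10 to 0.57 with Camk4, -0.12 to 0.61 with Camkk1 and -0.33 to 0.14 with Nrgn. The sign changed without untreated replicate 4 for Camk2d, Camk4 and Camkk1, without untreated replicate 1 for Camk2g, and without untreated replicate 1 (0.00184) or RG2833 replicates 1 (0.0733) or 5 for Nrgn. Without the 2 farthest animals r was -0.11 for Camkk1. In every setting run 0 of the 8 relations passed after adjustment (unadjusted p = 0.00903 for Camk1 without untreated replicate 1 and 0.0288 for Camk2g without untreated replicate 5, exact permutation). Among the 9 genes, Camk2d had the fewest counts, 81 to 308 a library.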
